A study of Homo sapiens with 10 samples.

Results

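The cytosolic ribosomal protein genes of HEK293T cells were measured by poly(A)-selected RNA-seq in 3 media labelled by their cysteine. They were taken as the protein-coding genes whose GENCODE 44 symbol is RPL or RPS followed by a number. An A, X or L could follow, with or without a further number after it. RPLP0, RPLP1, RPLP2 and RPSA were included as well. This gave 84 genes of the 78894 in the table, 52 of the large and 32 of the small ribosomal subunit, spread over 21 chromosomes. Among them were 7 paralogs of a second ribosomal protein gene: RPL3L, RPL7L1, RPL10L, RPL22L1, RPL26L1, RPL39L and RPS27L. RPL10L was listed at 0 in every library, and 83 of the 84 genes reached a value of 10 in at least 3 of the 10 libraries and were tested. FAU, RACK1 and RPL36AL also encode ribosomal proteins or fusions with them, but their symbols fall outside this rule and they are described apart.

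HEK293T is an established human embryonic kidney line that expresses adenoviral E1A and the SV40 large T antigen. The cells were kept for 24 h in medium without cysteine (labelled 0X, 2 libraries, called cysteine-free), with the usual cysteine (1X, 4 libraries, complete) or with 10 times that amount (10x, 4 libraries, excess). The labels name the libraries of a group as biological replicates. The study's methods describe a starvation medium that lacked cysteine, and another that also held dialyzed serum. Its RNA methods refer to an amino acid starvation treatment without saying which medium was used. The study asked how cells respond to the supply of cysteine, and its own RNA comparison concerned the cysteine-free and complete media. The replicate number in its legend for that comparison differs from the 2 cysteine-free and 4 complete libraries used here.

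Each cytosolic ribosome holds 1 copy of most of these proteins, and proliferating cells devote a large part of their mRNA to them. Their mRNAs commonly begin with a C followed by a run of pyrimidines, the 5′ terminal oligopyrimidine (TOP) tract, through which the kinase mTORC1, the RNA-binding protein LARP1 and the 4E-BP translation repressors set their translation and stability. Amino acid supply is a known input to that pathway, and ribosomal protein synthesis is a large consumer of amino acids. A poly(A) library measures the amount of mRNA and not its translation.

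The libraries held between 34836014 and 61654861 reads on genes, of which 1843876 to 4254094 fell on the 84 genes. The number of libraries limited the precision, together with counting error for members with few reads such as RPL3L. All 6 HEK293T markers (PAX2, KRT8, KRT18, VIM, NEFM and NEFL) were at 10 or more in every library. The summed level of 3 HepG2 markers (ALB, APOA1 and AFP) was at most 34.6 and that of 3 Jurkat markers (CD3D, CD3E and PTPRC) at most 4.36 in any library. Mitochondrially encoded genes took 5.43% ± 0.397 (SD, n = 2) of the cysteine-free, 4.71% ± 0.25 (SD, n = 4) of the complete and 0.129% ± 0.0129 (SD, n = 4) of the excess libraries. The low share goes with the excess medium in both comparisons that include it. Values with libraries scaled to equal totals without these genes are given beside the results.

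The annotated starts of the members carried the TOP tract in most cases. A tract was called where the first transcribed base of the canonical transcript was C and at least 5 bases from there on were C or T, read on the transcribed strand. It was present in 59 of the 84 members (70.2%) and in 5.09% of the 15652 protein-coding genes tested. The letters CTTTCC occurred within 40 bases before and 41 bases from the start, on the transcribed strand, in 31.0% of the members and in 3.21% of the genes tested. For CTCTTT, which can overlap the former, the shares were 29.8% and 2.33%. The first 5 sequences below belong to the genes with large increases in excess medium, RPL12 and RPL28 to genes that rose in both altered media, and RPL22 to a gene with a tract that was not called. The last 4 belong to RPS26 and to 3 paralogs, which went against the majority or stand beside a partner shown here. Each is 15 bases before and 15 bases from the annotated start on GRCh38, 5′ to 3′, with the pyrimidine run in capitals.
RPS27 (chr1:153990747-153990776, plus strand): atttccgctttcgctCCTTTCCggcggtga
RPS19 (chr19:41860240-41860269, plus strand): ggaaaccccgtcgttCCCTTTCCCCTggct
RPS12 (chr6:132814554-132814583, plus strand): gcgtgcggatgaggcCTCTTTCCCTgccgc
RPL26 (chr17:8383179-8383208, minus strand): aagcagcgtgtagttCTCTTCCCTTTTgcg
RPL39 (chrX:119791616-119791645, minus strand): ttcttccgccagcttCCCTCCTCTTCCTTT
RPL12 (chr9:127451392-127451421, minus strand): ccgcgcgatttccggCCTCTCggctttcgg
RPL28 (chr19:55385917-55385946, plus strand): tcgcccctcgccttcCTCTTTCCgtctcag
RPL22 (chr1:6199581-6199610, minus strand): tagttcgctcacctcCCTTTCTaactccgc
RPL22L1 (chr3:170870181-170870210, minus strand): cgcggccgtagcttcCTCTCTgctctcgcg
RPS26 (chr12:56041903-56041932, plus strand): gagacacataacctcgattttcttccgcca
RPL26L1 (chr5:172959409-172959438, plus strand): gcggcacggaaactcacttccggccctgcg
RPS27L (chr15:63157463-63157492, minus strand): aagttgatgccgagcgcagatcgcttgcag

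RPS27, RPS19, RPS12, RPL26 and RPL39 start with runs of 7, 11, 10, 12 and 19 pyrimidines, the last of which runs past the window. RPL22L1 was the one paralog with a tract. RPS26, RPL26L1 and RPS27L begin with a purine. An annotated start can lie some bases from the start that cells use, so a missing tract says only that these letters are not at the annotated position.

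The share of each library that fell on the 84 genes was higher in excess medium. It was 5.75% and 5.75% in the cysteine-free libraries, 5.51%, 5.29%, 5.44% and 5.47% in the complete libraries, and 6.90%, 6.97%, 6.99% and 7.15% in the excess libraries. The means were 5.75% ± 0.00154 (SD, n = 2), 5.43% ± 0.0937 (SD, n = 4) and 7.0% ± 0.104 (SD, n = 4), and the lowest excess library lay above the highest of the others. Out of the total without mitochondrially encoded genes, the means were 6.08%, 5.69% and 7.01%. For the 37 members whose exons overlap those of no other annotated gene, they were 2.06%, 1.97% and 2.56% of all reads, in the same order. In bulk RNA, a change in the make-up of the culture and a change in RNA per cell cannot be told apart, and all values are relative to the rest of the library.

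**Figure D1:**
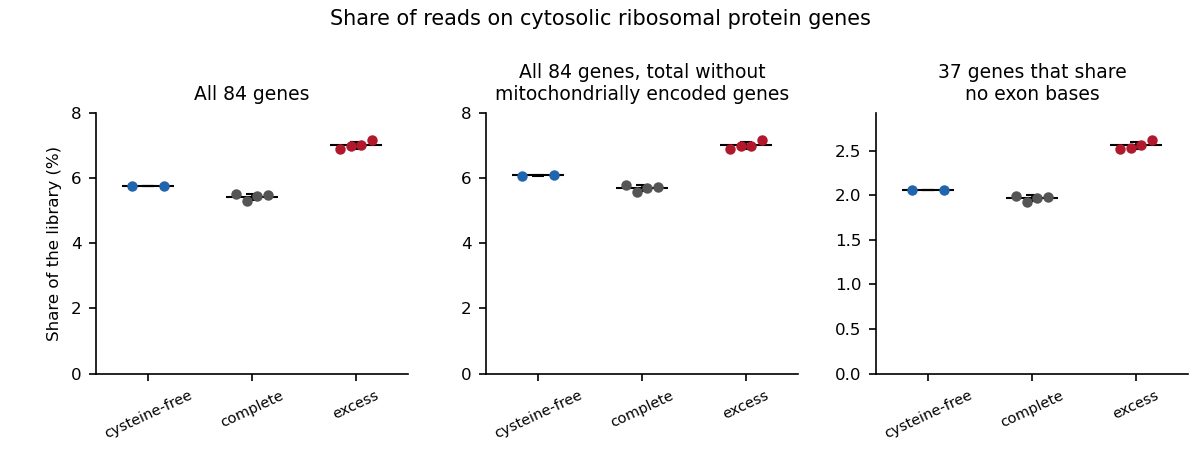
Share of each library on the cytosolic ribosomal protein genes (y axis, percent) by medium (x axis), for all 84 genes, for all 84 genes out of the total without mitochondrially encoded genes, and for the 37 genes without exon overlap. Points are libraries, the horizontal line is the mean and the bar the SD (n = 2, 4 and 4). In every panel the 4 excess libraries, between 6.90% and 7.15% in the first, lie above the other 6.

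In excess against complete medium, 71 of the 83 tested members rose and 3 fell (limma, Benjamini-Hochberg adjusted p of 0.01 or less). Over all genes tested, 23.1% rose and 22.9% fell. The median log2 fold change of the members was 0.25, against 0.01 for all genes, and 76 of 83 differences were positive. After quantile normalization the members' median was 0.46, at an all-gene median of -0.01. With libraries scaled to equal totals without mitochondrially encoded genes, 73 members rose and 3 fell, with a median of 0.29. The increases were modest: none of the members reached a 2-fold change. Without the paralogs, 70 of 77 rose and 1 fell, with 41 of 46 rising in the large and 29 of 31 in the small subunit and medians of 0.25 in both. Each library taken alone gave the same direction, since the median difference from the complete mean over the 77 genes was 0.21, 0.25, 0.25 and 0.32 in the excess libraries and between -0.04 and 0.05 in the complete libraries. Of 1555 other genes with a mean of 5000 or more, 463 rose and 728 fell, with a median of -0.11.

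**Figure D2:**
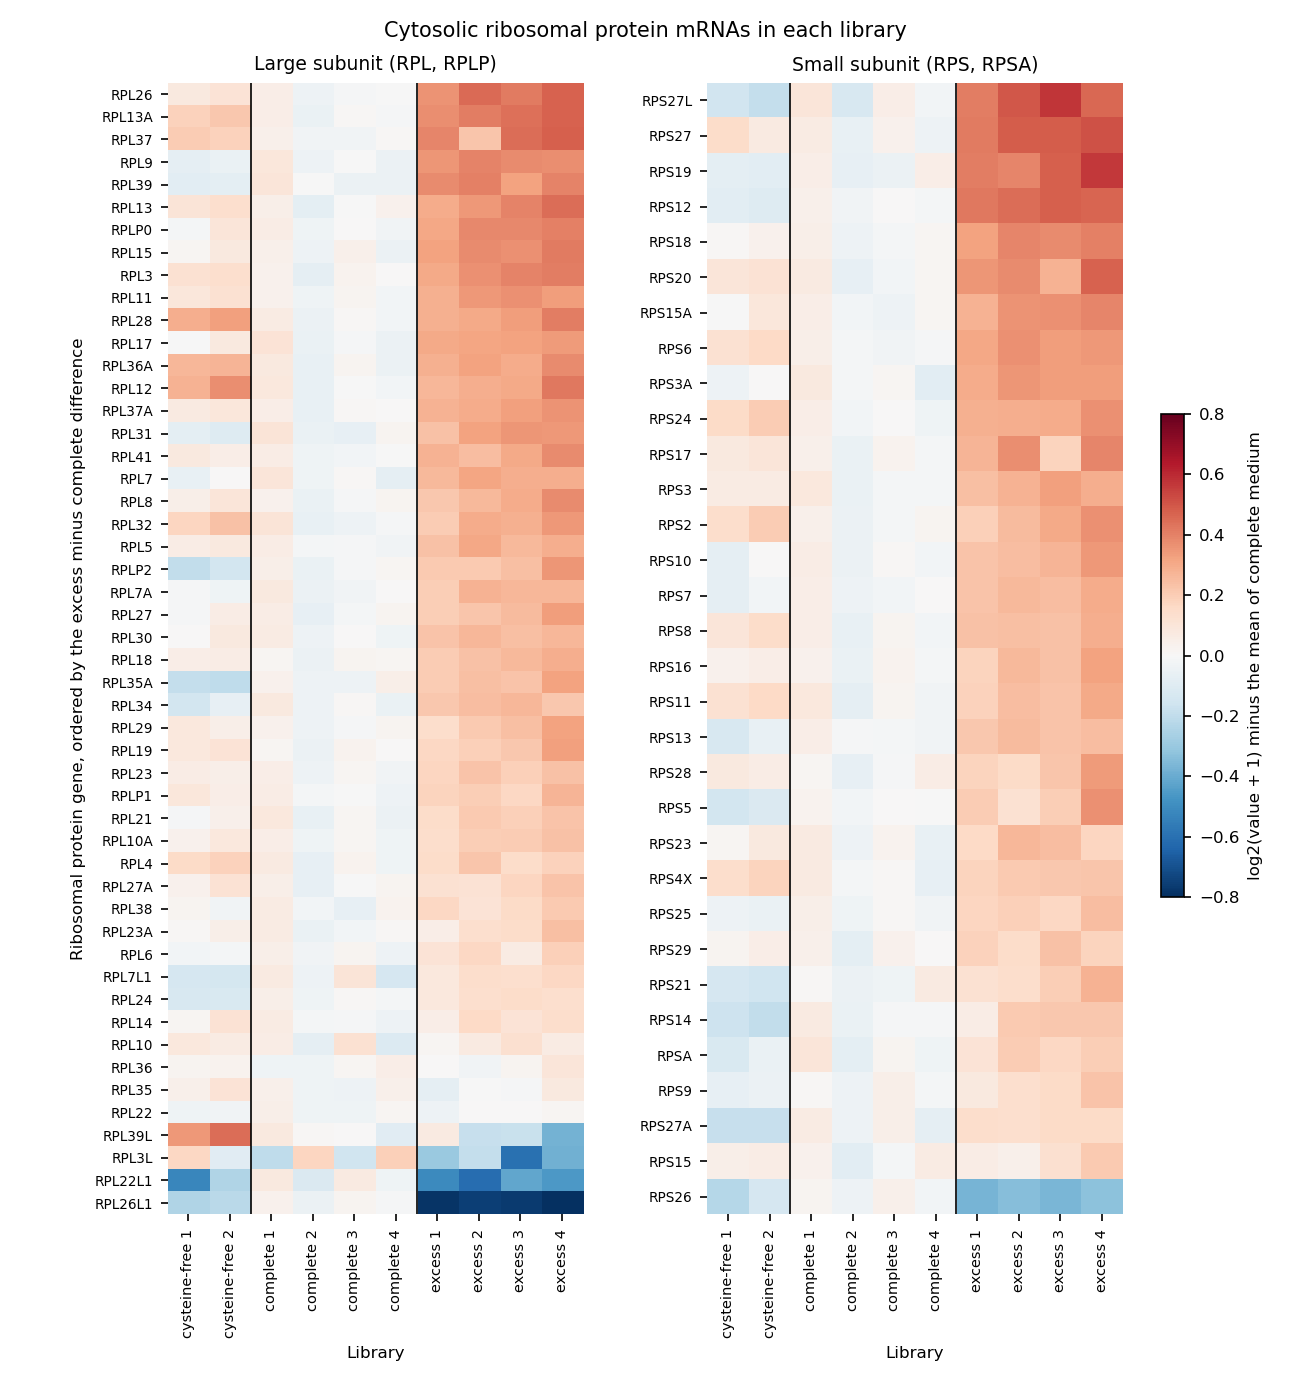
Difference of log2(value + 1) from the mean of the complete libraries (color) for 82 of the 83 tested members (rows, ordered by the excess minus complete difference) in each of the 10 libraries (columns), by subunit. Nearly all rows are red in the 4 excess libraries, the cysteine-free libraries hold both colors, and RPL26L1, RPL22L1, RPL3L and RPS26 are blue in excess medium.

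The 5 largest increases belonged to RPS27L, RPS27, RPS19, RPS12 and RPL26. RPS19, a small subunit protein whose loss causes Diamond-Blackfan anemia, had normalized read counts of 26070.1, 24074, 24391 and 26112 in complete and 33417, 32944, 34955 and 37249.7 in excess medium. The groups did not overlap, and the log2 fold change was 0.46 ± 0.04 (SE), an increase of 37.6% (limma adjusted p = 6.46e-08). RPS12, a small subunit protein, went from 24285, 23124, 23597 and 23276 to 31545, 32059, 32805 and 32554, again without overlap and by 0.45 ± 0.03 on the log2 scale (limma adjusted p = 2.24e-09). For RPS27, a zinc-binding small subunit protein, the counts were 21130.2, 19374, 20669 and 19620.1 and 26923, 28259.5, 28282 and 28735, a log2 fold change of 0.47 ± 0.04 (limma adjusted p = 8.2e-09). RPL26, a large subunit protein, rose by 0.42 ± 0.03 (limma adjusted p = 1.59e-08). An exact permutation test over libraries gave a two-sided p of 0.0286 for each of these 4 genes, the smallest that 4 against 4 libraries allow.

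RPS26 was the one gene outside the paralogs that fell in excess medium. It encodes a small subunit protein at the mRNA exit channel and lies at chr12:56041351-56044697 on the plus strand (GRCh38), and its exons overlap those of no other annotated gene. Its counts were 6560.3 and 7007 in cysteine-free, 7800.0, 7491, 7912 and 7578 in complete and 5947, 6067, 5972 and 6141 in excess medium. The 3 groups did not overlap, with the complete libraries highest and the excess libraries lowest. The log2 fold change was -0.35 ± 0.04 (SE) in excess (limma adjusted p = 2.9e-07) and -0.18 ± 0.05 in cysteine-free medium, which was not called (limma adjusted p = 0.0183). The annotation holds 36 pseudogenes of RPS26, and how reads that match several places were counted is not given in the sources used here.

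In the same comparison, 9 tested members were not called, among them the paralogs RPL3L, RPL7L1 and RPL39L. RPL10, RPL22, RPL35, RPL36 and RPS15 were also among them, the last 3 named after their values were seen. RPL22, an RNA-binding large subunit protein, had counts of 16327, 15427, 15441 and 15969 in complete and 15345, 15836, 15848 and 15978 in excess medium, which overlapped. The 95% interval of its log2 difference was -0.07 to 0.07, and it was called higher under 3 of the 4 other scalings. RPL10, which joins the large subunit late in its maturation, differed by 0.07 with an interval of -0.03 to 0.17, and 53.4% of its exon bases are shared with other genes. It was called higher with equal totals (0.18), with equal totals without the members (0.20) and after quantile normalization (0.38). The other values are in the map of members by library.

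**Figure D3:**
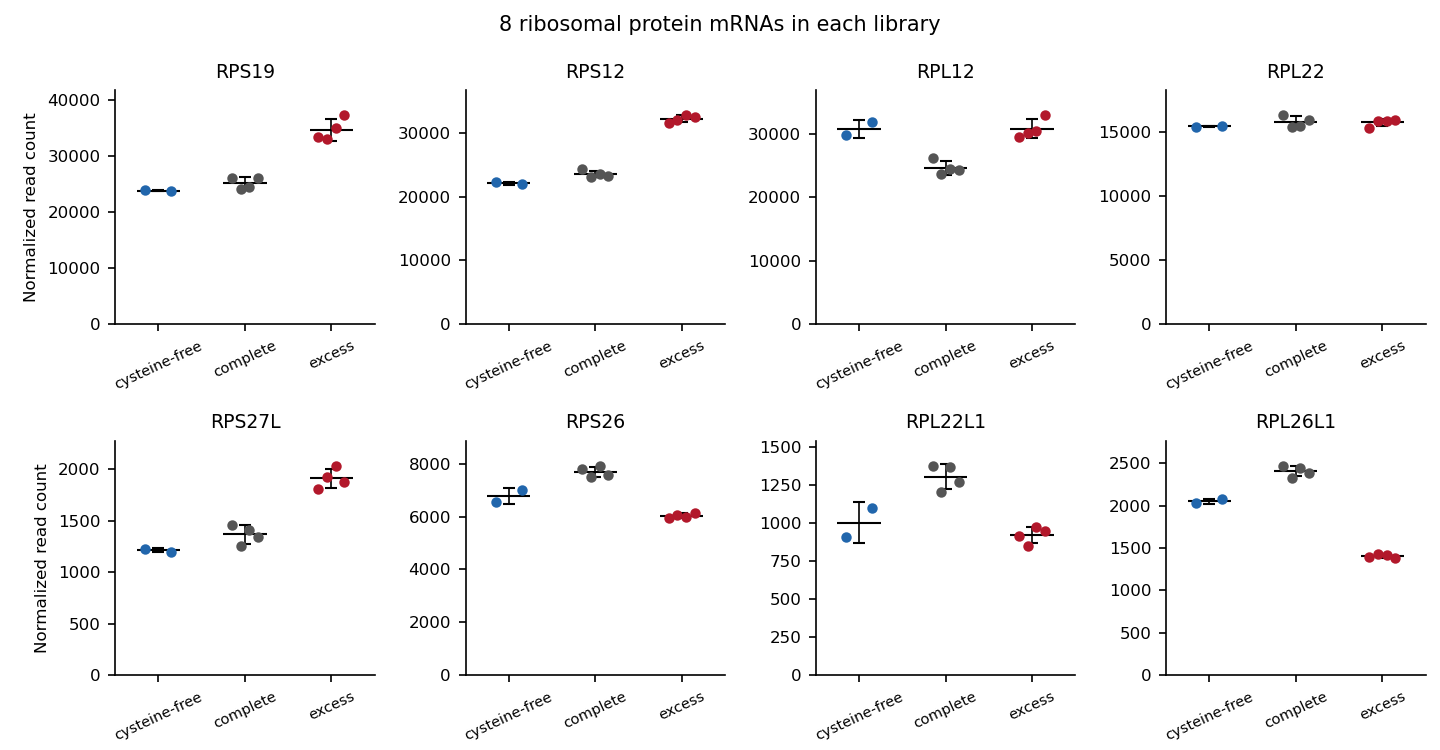
Normalized read counts (y axis, from 0) of 8 ribosomal protein genes by medium (x axis). Points are libraries, lines are means and bars are SDs (n = 2, 4 and 4). RPS19, RPS12 and RPS27L are highest in excess medium, RPL12 overlaps between cysteine-free and excess medium, RPL22 overlaps in all media, and RPS26, RPL22L1 and RPL26L1 are highest in complete medium.

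In cysteine-free against complete medium, 7 members rose and 2 fell, and 74 were not called (limma, adjusted p of 0.01 or less). Of all genes tested 7.39% rose, a share near that of the members, and 8.51% fell, a larger share than among the members. The median log2 fold change of the members was 0.04, with 52 of 83 differences positive. The counts rest on few libraries: 1 member (RPL12) was called without the first and 0 without the second cysteine-free library, and 3 without the second complete library, in which 0 of the 77 non-paralog genes lay above the group mean. When libraries were scaled to equal totals without mitochondrially encoded genes, 18 rose and 2 fell.

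The 7 genes that rose were RPL12, RPL28, RPL36A, RPL13A and RPL37 of the large subunit and, named after their values were seen, RPS24 and RPS2 of the small subunit. RPL12, a protein at the base of the ribosomal stalk, had counts of 29872 and 31858 in cysteine-free and 26205, 23708, 24578 and 24265 in complete medium. The groups did not overlap, and the log2 fold change was 0.32 ± 0.05 (SE) (limma adjusted p = 0.000445). RPL28, a large subunit protein, had 19907 and 20491 against 17078, 15742, 16371 and 16024, a difference of 0.31 ± 0.05 (limma adjusted p = 0.000389). RPL36A rose by 0.27 ± 0.05, RPL13A by 0.20 ± 0.04 and RPL37 by 0.19 ± 0.04 on the log2 scale. Of RPL36A, 22.4% of the exon bases are shared with other genes, chiefly GLA.

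The 2 that fell were RPL22L1, given with the paralogs, and RPL35A, a large subunit protein mutated in some cases of Diamond-Blackfan anemia. RPL35A had counts of 9278 and 9190.2 in cysteine-free, 10823, 10264, 10281 and 10925 in complete and 12141, 12461, 12388 and 13192 in excess medium. It was thus below complete medium without cysteine, with a log2 difference of -0.19 ± 0.05 (limma adjusted p = 0.00968), and above it in excess, with 0.25 ± 0.04 (limma adjusted p = 2.95e-05). The former value lies at the threshold and was no longer called under the 4 other scalings, nor when either cysteine-free library or complete replicate 1, 2 or 4 was left out.

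Cysteine-free was also compared with excess medium directly. In this comparison 61 members were lower and 3 higher in cysteine-free medium, with a median log2 difference of -0.21, while 24.4% of all genes tested were lower and 23.6% higher (limma, adjusted p of 0.01 or less). With equal totals without mitochondrially encoded genes, 64 members were lower and 3 higher. The 5 largest decreases in cysteine-free medium, among members with a mean normalized count of 100 or more, were those of RPS27L, RPS12, RPS19, RPL39 and RPL35A. RPS12 had 22231 and 21945 in cysteine-free against 31545, 32059, 32805 and 32554 in excess medium, a log2 difference of -0.55 ± 0.03 (limma adjusted p = 3.95e-13). RPL39, a small protein of the exit tunnel, had 27199 and 27253 against 37346, 38066, 36005 and 37897, a difference of -0.45 ± 0.03 (limma adjusted p = 1.61e-11). The 3 higher genes were RPL39L, RPL26L1 and RPS26. The call of RPS26 was lost with equal totals, with or without the members, and when cysteine-free replicate 2 was left out.

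RPL12, RPL28 and RPL36A were not called in this comparison. RPL12 had 29636, 30192, 30462 and 33024 in excess medium, which overlaps its cysteine-free counts. The 95% interval of its direct log2 difference was -0.08 to 0.08, and the difference was -0.17 after quantile normalization. RPL28 differed by -0.02 (interval -0.10 to 0.05) and RPL36A by -0.05 (interval -0.12 to 0.02). Both were called lower in cysteine-free medium with equal totals, with or without the members, and after quantile normalization, reaching -0.12 for RPL28 and -0.30 for RPL36A. Against complete medium, these 3 genes had risen in excess by 0.32, 0.33 and 0.32, next to 0.32, 0.31 and 0.27 in cysteine-free medium. Both sets of values share the complete libraries.

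**Figure D4:**
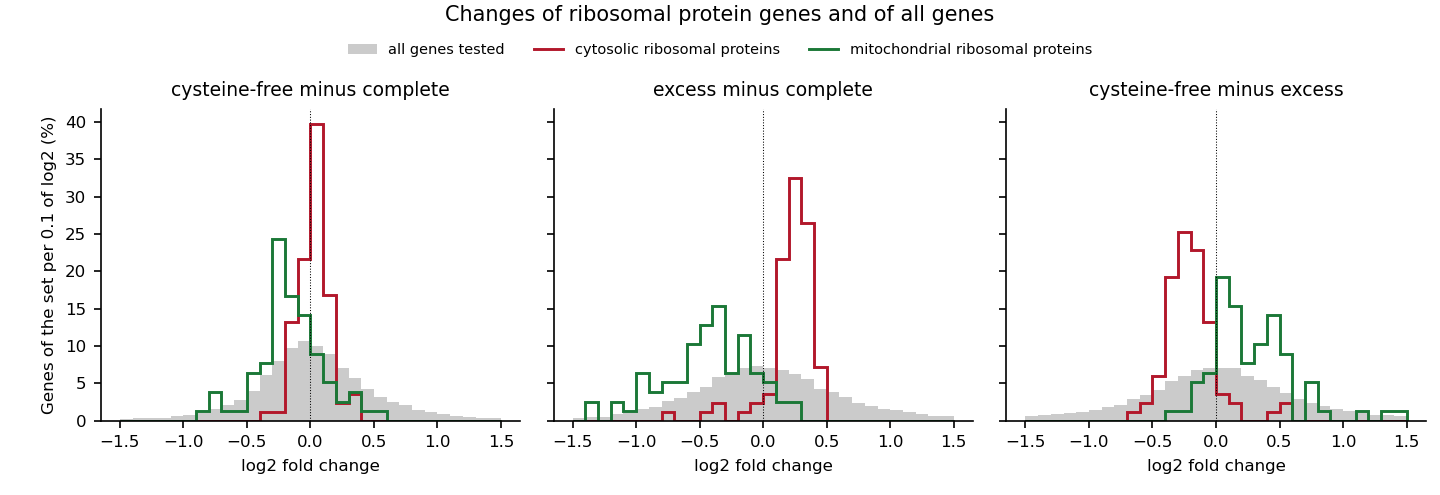
Distribution of log2 fold changes (x axis, steps of 0.1) as the percent of each set (y axis) in the 3 comparisons, for all 29045 genes tested (gray), the 83 cytosolic (red) and 78 mitochondrial ribosomal protein genes (green). Genes beyond 1.5 in either direction are not drawn. In excess minus complete, the cytosolic set peaks right of 0 (median 0.25) and the mitochondrial set left of it (median -0.40).

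The paralogs were divided. Of the 6 tested, 1 rose and 2 fell in excess medium, where 23.1% of all genes tested rose and 22.9% fell. So few genes cannot be set apart from these shares. Their normalized counts were given per 100 of the partner gene as well, without correction for length. RPL26L1, a near copy of RPL26 at chr5:172958729-172969771 on the plus strand, had counts of 2034 and 2075 in cysteine-free, 2468, 2332, 2446 and 2388 in complete and 1397, 1431, 1417 and 1386 in excess medium. The excess libraries lay far below the rest, with a log2 fold change of -0.77 ± 0.05 (SE), the largest decrease of all members (limma adjusted p = 2.8e-10). RPL26 was higher in excess medium, and RPL26L1 went from 8.13 per 100 RPL26 reads in complete medium (8.02 to 8.31 over libraries) to 3.54 in excess (3.37 to 3.68) and 6.5 in cysteine-free medium (6.49 to 6.51).

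RPL22L1, a paralog of RPL22 with a role in splicing, had 905 and 1099 in cysteine-free, 1374, 1203, 1365 and 1269.6 in complete and 915, 851, 975 and 947 in excess medium. Both altered media lay below complete medium, with log2 differences of -0.38 ± 0.09 (limma adjusted p = 0.00645) and -0.50 ± 0.06 (limma adjusted p = 3.04e-06). The former call was lost when either cysteine-free library or complete replicate 1 or 2 was left out. Per 100 reads of RPL22 it was 6.49, 8.25 and 5.85 in the 3 media in that order. RPS27L, a paralog of RPS27 and a known p53 target, went the other way, with 1224 and 1197 in cysteine-free, 1459, 1250.2, 1412 and 1343 in complete and 1812, 1923, 2030.3 and 1876 in excess medium. It rose by 0.48 ± 0.06 in excess (limma adjusted p = 1.64e-06), alongside RPS27, so that their ratio was 6.76 per 100 in complete and 6.81 in excess medium, with overlapping libraries. In cysteine-free medium it was 5.56 (5.47 to 5.65), below all complete libraries (6.45 to 6.9).

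RPL39L, best known from the testis, had 485 and 519 in cysteine-free, 402, 384, 382 and 358 in complete and 399.9, 335, 336 and 293 in excess medium. The cysteine-free libraries were the highest, but the log2 difference of 0.40 ± 0.10 from complete medium narrowly missed the threshold (limma adjusted p = 0.0102), while that from excess medium, 0.57 ± 0.10, passed it (limma adjusted p = 4.18e-05). RPL39L was called higher than in complete medium under 10 alternatives, among them equal totals, edgeR and DESeq2. Its ratio to RPL39 was 1.84, 1.32 and 0.914 per 100 in cysteine-free, complete and excess medium. RPL7L1, which acts in ribosome assembly, differed by 0.13 in excess (limma adjusted p = 0.0209) and was called higher under the 4 other scalings, at up to 0.26, and without the third complete library. Cysteine-free against excess medium, it was called lower under all alternatives but the 2-fold minimum, with log2 differences from -0.37 to -0.25. RPL3L, the form of heart and skeletal muscle, stayed between 35.8 and 62.5 in all libraries and was called in no comparison.

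**Figure D5:**
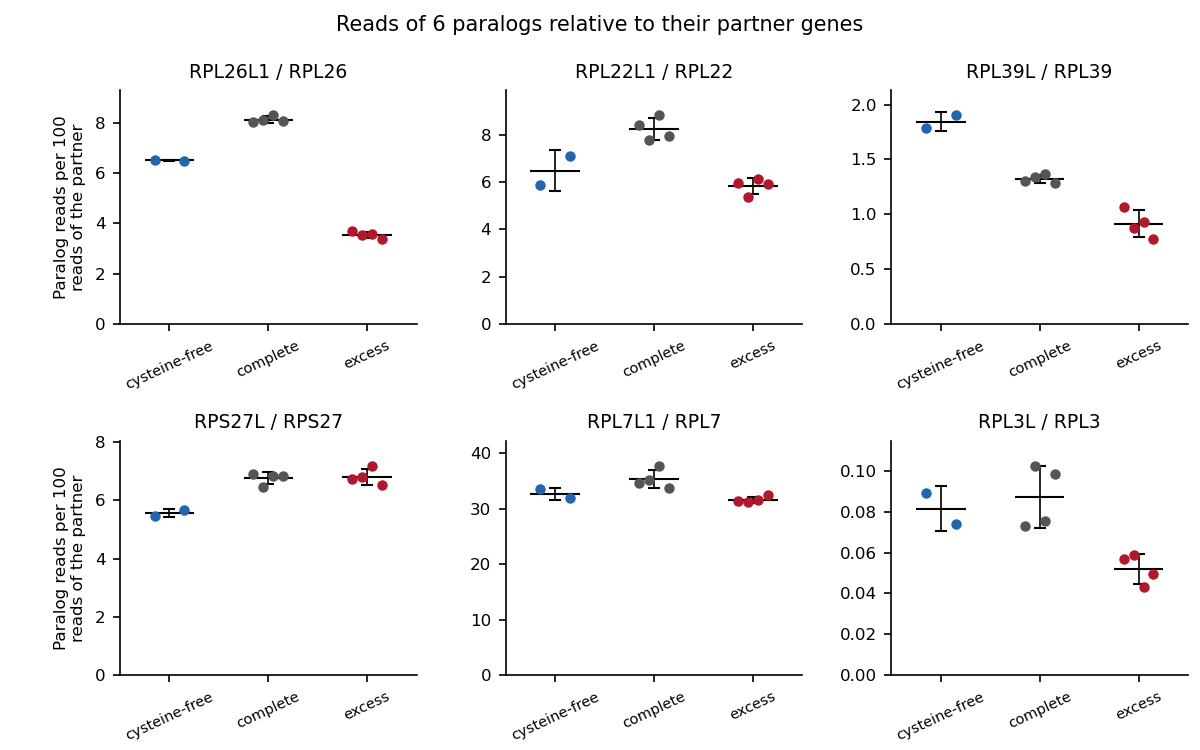
Normalized reads of 6 paralogs per 100 reads of the partner gene (y axis, from 0, not corrected for length) by medium (x axis). Points are libraries, lines are means and bars are SDs (n = 2, 4 and 4). RPL26L1 and RPL39L separate all 3 media, RPL22L1 is highest in complete medium, and RPS27L does not separate complete from excess medium.

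The 5 genes of the stalk and the 5S ribonucleoprotein all rose in excess medium. RPLP0, the anchor of the stalk that recruits elongation factors, had 58015, 54400.2, 55976 and 54690.5 in complete and 69187, 72647, 72688 and 73884 in excess medium, an increase of 0.37 ± 0.03 on the log2 scale (limma adjusted p = 4.14e-08). Its partners RPLP1 and RPLP2 rose by 0.20 ± 0.03 and 0.25 ± 0.04. RPL5 and RPL11, which bind 5S rRNA and can restrain MDM2 when unassembled, rose by 0.27 ± 0.03 and 0.33 ± 0.03. In cysteine-free medium none of these 5 genes was called, with differences from -0.17 (RPLP2) to 0.11 (RPL11).

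Among other small subunit proteins, RPS6, the target of the S6 kinases, had 70989.7 and 72809 in cysteine-free, 67376, 64369, 63959 and 64775 in complete and 80668, 83733, 82010.1 and 82955 in excess medium. The groups did not overlap, and both altered media were above complete medium, by 0.14 ± 0.04, which was not called (limma adjusted p = 0.0217), and by 0.34 ± 0.03, which was (limma adjusted p = 4.1e-08). The former difference was called under 8 alternatives, among them all other scalings and edgeR, but not DESeq2. RPS27A, made as a fusion with ubiquitin, had 18233 and 18293, 21742, 20163, 21414 and 19795 and 22922, 22755, 23049.9 and 23053 in the same order of media. It was lowest in the cysteine-free libraries, and its increase of 0.14 ± 0.04 in excess was lost without the second complete library. RPSA, also the laminin receptor precursor, rose by 0.17 ± 0.04, a call lost at 0.056 (limma adjusted p = 0.207) once a trend on GC content and transcript length was removed. RPS4X, encoded on the X chromosome, rose by 0.21 ± 0.03 and RPS25, used by viral internal ribosome entry sites, by 0.19 ± 0.03.

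In the large subunit, RPL41, whose open reading frame of 25 codons was the shortest, rose in excess by 0.30 ± 0.03. RPL10A and RPL38, both reported to differ between ribosomes of one cell, rose by 0.19 ± 0.03 and 0.16 ± 0.04. RPL3 and RPL7, the partners of RPL3L and RPL7L1, rose by 0.37 ± 0.03 and 0.29 ± 0.04, and RPL39 by 0.37 ± 0.04 (limma, adjusted p of 0.01 or less for each of these 6 genes).

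The members were also split by features of the genes that the rule had not used. Among members with a TOP tract, 54 of 59 rose and 1 fell in excess medium, and among those without, 17 of 24 rose and 2 fell. With the paralogs left out, 16 of 19 genes without a tract rose and 1 fell, and the medians were 0.25 with a tract (paralog RPL22L1 included) and 0.22 without. Of 737 other genes with such a tract at their start, 228 rose and 223 fell, with a median of 0.01, and of 14832 other genes without one, 4242 rose and 4643 fell, with a median of -0.0056. The number of cysteine codons of the 77 genes without paralogs ranged from 0 to 8. In excess medium, 26 of 30 genes with fewer than 2 such codons rose, as did 36 of 36 with 2 to 4 and 8 of 11 with more, and all 3 medians were 0.25. The medians in cysteine-free medium were 0.02, 0.05 and 0.11 in the same order. Of the 28 genes that hold a snoRNA gene inside, 26 rose in excess medium, and of the other 49, 44 rose and 1 fell. Over the 36 tested members without exon overlap, 30 rose and 2 fell, with a median of 0.25. None of these splits was tested.

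Among ribosomal proteins outside the symbol rule, RACK1 rose in excess and RPL36AL fell in cysteine-free medium. RACK1, the small subunit scaffold, had 70939, 66910.4, 68774 and 67758 in complete and 89073, 92305, 93264 and 94434 in excess medium, without overlap and with a log2 fold change of 0.43 ± 0.03 (limma adjusted p = 4.01e-09). RPL36AL, a paralog of RPL36A, had 3548 and 3639 in cysteine-free and 5154, 4762, 4960.3 and 4609 in complete medium, a log2 difference of -0.44 ± 0.06 (limma adjusted p = 0.000135), where RPL36A had risen.

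Other mRNAs known to carry a TOP tract were mostly higher in excess medium. Of 16 such genes 12 rose and 2 fell, their median being 0.28 on the log2 scale, and in cysteine-free medium 2 rose and 1 fell. Of all genes tested, 23.1% rose and 22.9% fell in excess and 7.39% rose and 8.51% fell in cysteine-free medium. EEF2, the translocation factor, had 146967 and 146826 in cysteine-free, 131689, 123602, 129512 and 130283 in complete and 226351, 236078, 234552 and 249861 in excess medium. The 3 media did not overlap, with increases of 0.19 ± 0.04 and 0.88 ± 0.03 over complete medium, the latter larger than that of any ribosomal protein gene. TPT1, a growth-associated protein, rose by 0.59 ± 0.03. The 2 that fell were NPM1, a nucleolar chaperone of ribosome assembly, with a log2 difference of -0.44 ± 0.04, and HNRNPA1, an RNA-binding protein, with -0.27 ± 0.04. In cysteine-free medium the other gene that rose was PABPC1, the poly(A)-binding protein (0.32 ± 0.05), and the one that fell was EEF1D, an exchange factor of elongation (-0.27 ± 0.05).

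The genes of the mitochondrial ribosome, encoded in the nucleus, went the other way in excess medium. Of 78 tested, 3 rose and 55 fell (70.5%, against 22.9% of all genes), with a median log2 fold change of -0.40. In cysteine-free medium 3 rose and 23 fell (29.5%, against 8.51%), with a median of -0.18. Directly compared, 42 were higher and 3 lower in cysteine-free than in excess medium (53.8% and 3.85%, against 23.6% and 24.4% of all genes). The cytosolic genes had 3 higher and 61 lower in that comparison.

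Of 17 regulators of TOP mRNAs, 5 rose and 5 fell in excess (29.4% each way, against 23.1% and 22.9% of all genes), and 3 rose and 2 fell in cysteine-free medium (17.6% and 11.8%, against 7.39% and 8.51%). EIF4EBP1, which encodes the translation repressor 4E-BP1, had 9708 and 10448 in cysteine-free, 3833, 3328, 3743 and 3257 in complete and 6148, 6289, 6738 and 6797 in excess medium. It was higher in both altered media, by 1.51 ± 0.07 and 0.88 ± 0.06 on the log2 scale (limma adjusted p = 1.78e-08 and 6.75e-10). EIF4E, the cap-binding protein it blocks, was lower in both, with log2 differences of -0.40 ± 0.07 and -0.56 ± 0.05. MLST8, a subunit of the mTOR complexes, rose by 0.41 ± 0.06 in cysteine-free and fell by 0.31 ± 0.05 in excess medium. LARP4 fell by 0.29 ± 0.06 in cysteine-free medium, while LARP1, named after its values were seen, rose by 0.28 ± 0.05. In excess medium LARP1B rose by 0.68 ± 0.05 and RPS6KB2, an S6 kinase, fell by 0.42 ± 0.05.

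Of 16 chaperones and importers of ribosomal proteins, 0 rose and 8 fell in cysteine-free medium (50% fell, against 8.51% of all genes), and 3 rose and 7 fell in excess (18.8% and 43.8%, against 23.1% and 22.9%). GRWD1, a chaperone of RPL3, had 2806 and 3036 in cysteine-free, 4718, 4632, 4416 and 4567 in complete and 2923, 3058, 3152 and 3204 in excess medium. Both altered media were lower, with log2 differences of -0.65 ± 0.06 and -0.57 ± 0.04, while RPL3 itself rose in excess. LTV1, an assembly factor of the small subunit, fell by 0.55 ± 0.06 in cysteine-free medium and BCCIP, a chaperone of RPL23, by 0.79 ± 0.05 in excess. NACA, of the nascent chain complex, and TNPO1, an importin, rose in excess by 0.22 ± 0.04 and 0.20 ± 0.04.

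Of 12 genes for ribosome hibernation and turnover, 3 rose and 5 fell in excess (25% and 41.7%, against 23.1% and 22.9% of all genes), and 1 rose and 3 fell in cysteine-free medium (8.33% and 25%, against 7.39% and 8.51%). CCDC124, which binds idle ribosomes, fell in both, by 0.31 ± 0.07 in cysteine-free and 0.96 ± 0.05 in excess medium. EEF2K, the kinase that restrains EEF2, rose by 0.47 ± 0.08 in cysteine-free medium. IFRD2, another factor of idle ribosomes, fell there by 0.28 ± 0.06. In excess medium the ubiquitin ligases RNF14 and RNF10, which act on stalled ribosomes, rose by 0.55 ± 0.05 and 0.40 ± 0.04, and NUFIP1 fell by 0.53 ± 0.07.

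Of 11 factors linked to ribosomal protein promoters, 4 rose and 4 fell in excess (36.4% each way, against 23.1% and 22.9% of all genes), and 0 rose and 3 fell in cysteine-free medium (27.3% fell, against 8.51%). MYC, a known activator of ribosomal protein genes, had 5771 and 5893 in cysteine-free, 5781, 5022, 5717 and 4969.8 in complete and 2813, 2886, 2981 and 3038 in excess medium. The excess libraries lay below all others, a log2 fold change of -0.87 ± 0.05 (limma adjusted p = 4.88e-10). TBPL1, a relative of the TATA-binding protein, and GABPB1, a subunit of the ETS factor GABP, rose in excess by 0.56 ± 0.07 and 0.52 ± 0.09. ZBTB7A fell by 0.56 ± 0.08 in cysteine-free and 0.24 ± 0.06 in excess medium, and HCFC1 fell by 0.32 ± 0.05 in cysteine-free medium.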

How the data were processed

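Per the labels and the study's methods, the authors mapped poly(A)-selected reads to GRCh38 (STAR 2.7.10b) and assigned them to Ensembl genes with featureCounts, dropping reads that matched more than 1 gene, while the submitters' processing notes list HTSeq. The strand setting and the treatment of reads with several matches are not given in the sources used here. The deposited signal of a gene is its read count divided by the library's DESeq2 size factor, called normalized read count here. All values (100%) of each library were multiples of 1 step (tolerance 0.01), which gave back the reads. GENCODE 44 held 61463 of the 78894 gene IDs.

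The 29045 genes that reached 10 in 3 or more of the 10 libraries were tested. Log2(value + 1) was fitted with limma 3.58.1 in R 4.3.3 (trended eBayes, 2-sided, only the groups compared), with Benjamini-Hochberg adjustment over all genes tested and a threshold of 0.01, so fold changes are on the log2(value + 1) scale. Depth ranged from 34836014 to 61654861 reads per library. Replicates differed by more than sampling noise (chi-square per degree of freedom 1.93 to 2.45). The procedure was tested on simulated data in which far fewer genes changed than were called here. Alternatives included edgeR 4.0.16 and DESeq2 1.42.0 on recovered reads, other scalings, filters and pseudocounts, and leaving out each library. Sequences and exon overlaps come from the GRCh38 genome and GENCODE 44. The members, lists and tests were chosen with earlier results of these data known. In each comparison, the text names the 5 largest called increases and 5 largest called decreases among members whose groups did not overlap and whose higher mean was at least 100. It also names a fixed list of 28 members and the 2 largest called changes per direction of each other list against complete medium. Some genes of the table are not reported here.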

Additional observations from a re-analysis of the deposited data

How the results depend on the processing

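The 74 calls in excess against complete medium and the 64 in cysteine-free against excess medium stayed within 1.5 times those counts under all alternatives but a required 2-fold change, which left 0 in each comparison. Scaling moved the medians of excess minus complete to 0.35 (equal totals), 0.38 (equal totals without the members), 0.46 (quantile normalization) and 0.29 (equal totals without mitochondrially encoded genes), and those of cysteine-free minus excess to -0.29, -0.31 and -0.38 under the former 3, in that order. Equal totals also moved the excess median of all genes from 0.01 to 0.12, or 0.14 without the members, and relative to it the members stayed at 0.24 in both, but lay at 0.47 after quantile normalization. The 9 calls in cysteine-free against complete medium were 5 without a filter, 19 with equal totals, 20 without mitochondrially encoded genes in the total, 19 without the members in it, 23 after quantile normalization (median 0.078), 18 with all groups in one fit, 14 with edgeR, 17 with DESeq2, 23 at an adjusted p of 0.05 and 0 to 11 when one library was left out. With the replicate block they were 4, with 3 higher and 1 lower, against 71 in excess minus complete and 66 in cysteine-free minus excess. Deviations of libraries with the same number correlated between -0.116 and 0.103, and 3 of 4 excess libraries correlated best with their own number among complete libraries. The share of reads on the members was 6.08% and 5.69% in cysteine-free and complete medium out of the total without mitochondrially encoded genes, and 2.06%, 1.97% and 2.56% in cysteine-free, complete and excess medium for members without shared exon bases, by construction. RPL22 in excess was 0.10 with equal totals, 0.13 without the members in the total and 0.10 after quantile normalization, called in each. In cysteine-free minus excess, RPL10 was -0.25 and RPL12 -0.17 after quantile normalization, and RPL10 was -0.094 without the members in the total. Of the named members, 28 of 30 calls in excess held under every alternative but the 2-fold minimum (not RPS27A and RPSA), 22 of 27 in cysteine-free minus excess and 0 of 7 in cysteine-free minus complete. Except where the construction shows it, the cause was not tested. No group of 4 libraries among the 74 examined held one far from the others.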

Other observations

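The annotation holds 1600 pseudogenes named after the members, of which 356 passed the filter. In excess against complete medium 65 of them rose and 10 fell (18.3% and 2.81%, against 23.1% and 22.9% of all genes), with a median of 0.12 on the log2 scale, and in cysteine-free against complete medium 15 rose and 2 fell (4.21% and 0.562%, against 7.39% and 8.51%), with a median of 0.05 (limma, adjusted p of 0.01 or less). Each of the 77 members other than the paralogs had between 1 and 133 such pseudogenes in the annotation, with a median of 14 and the most for RPL21. Over those 77 genes, the number of pseudogenes and the change in excess medium had a rank correlation of 0.10, a description across genes that are not independent replicates. Reads of a gene and of a near-identical copy cannot be told apart by these counts.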
